A study of Mus musculus with 8 samples.

Results

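H3K9ac regions that recur across peak lists of the mouse cerebellum were described. Peaks of 8 libraries were pooled, any that overlapped by 1 bp or more were merged, and merged regions on chromosomes 1 to 19 and X were kept if 6, 7 or 8 of the 8 lists held a peak there and the merged width was at least 1200 bp and under 3000 bp. This rule kept 1003 of 19505 merged regions, of which 762 were in 6 lists, 216 in 7 and 25 in 8. Members were chosen by the number of lists and the width, so both are given as a description, and so are the widths and scores of the same peaks. Regions in 6 or more lists numbered 1216 on these chromosomes; 31 were narrower than 1200 bp and 182 were 3000 bp or wider.

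The mark was mapped by ChIP-seq, in which DNA bound to the modified histone is precipitated and sequenced, in cerebella of symptomatic SCA7 knock-in mice and wild type littermates. There were 4 libraries of heterozygous 266Q knock-in mice and 4 of wild type mice, all C57BL/6 and aged 9 weeks, and libraries are numbered by the replicate number in their label. In such knock-in mice the expanded repeat sits in the mouse Atxn7 gene, so the mutant protein is made wherever Atxn7 is active, and every knock-in library also has a normal allele. The labels do not say whether replicates came from separate animals or whether animals were pooled, so a p-value reflects only how these libraries vary, in part perhaps for technical reasons. The tissue is a mixture of cells, so more cells carrying the mark and more of the mark per cell cannot be told apart.

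Acetylation of histone H3 at lysine 9 marks the first nucleosomes of genes that are being transcribed and of genes poised for it. It is laid down by acetyltransferases that include KAT2A and KAT2B, which work inside the SAGA and ATAC complexes. Ataxin-7 is a subunit of SAGA that anchors the complex's deubiquitinase module, whose enzyme is USP22, and its expanded polyglutamine form causes spinocerebellar ataxia type 7 with loss of Purkinje cells and photoreceptors.

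The lists were far apart in length and in peak width, so libraries stood apart before any comparison. Knock-in libraries 1 and 2 and wild type libraries 1 and 2 held 7735 to 11409 peaks with median widths of 1065 to 1246 bp. Replicates 3 and 4 held 1266 to 5571 peaks in knock-in lists and 1571 to 3249 in wild type lists, with median widths of 132 to 148 bp. Depth is unknown, since the lists hold no read counts. As a check of the tissue, 23 of 26 listed granule cell genes and 18 of 27 Purkinje cell genes had an end within 1 kb of a merged region. The counts were 2 of 10 for liver and muscle genes and 1 of 12 for microglial genes. Of all 21887 protein-coding genes, 9851 (45.0%) had such an end. Other cerebellar cell types were below that share, with 5 of 15 interneuron, 2 of 14 astrocyte and Bergmann glia and 4 of 14 oligodendrocyte genes. The check therefore rests on the granule and Purkinje cell lists.

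Members that were in all 8 lists serve to show what such a region looks like in sequence. The 12 with a protein-coding gene end within 1 kb and the highest mean rank included Cplx2, Pde3b, Ep300, Ptpn9, Ptov1, Fbxw4, Brsk2, Susd6, Usf2 and Lysmd2. Below are the 250 bases before the RefSeq start site of 5 of them, on the plus strand of GRCm38.p6, the assembly of mm10, with capitals marking matches to the searched promoter motifs. The Cplx2 stretch is chr13:54302306-54302555 and has no match, the Ep300 stretch is chr15:81585964-81586213, the Ptpn9 stretch is chr9:56994718-56994967, the Brsk2 stretch is chr7:141949501-141949750 and the Susd6 stretch is chr12:80790282-80790531.
Cplx2: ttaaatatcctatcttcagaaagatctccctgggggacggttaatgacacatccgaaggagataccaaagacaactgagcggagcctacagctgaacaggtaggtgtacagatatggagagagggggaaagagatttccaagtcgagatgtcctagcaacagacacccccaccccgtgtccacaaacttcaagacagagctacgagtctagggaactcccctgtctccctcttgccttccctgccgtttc
Ep300: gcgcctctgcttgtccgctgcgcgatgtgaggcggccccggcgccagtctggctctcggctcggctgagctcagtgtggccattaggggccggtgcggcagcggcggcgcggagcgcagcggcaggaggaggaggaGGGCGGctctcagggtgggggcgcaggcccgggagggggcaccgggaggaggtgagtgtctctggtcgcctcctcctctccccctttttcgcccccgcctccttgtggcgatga
Ptpn9: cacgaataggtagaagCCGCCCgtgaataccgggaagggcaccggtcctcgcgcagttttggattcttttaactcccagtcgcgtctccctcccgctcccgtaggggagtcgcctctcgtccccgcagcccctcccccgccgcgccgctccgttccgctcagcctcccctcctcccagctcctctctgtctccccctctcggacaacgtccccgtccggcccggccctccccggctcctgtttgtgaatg
Brsk2: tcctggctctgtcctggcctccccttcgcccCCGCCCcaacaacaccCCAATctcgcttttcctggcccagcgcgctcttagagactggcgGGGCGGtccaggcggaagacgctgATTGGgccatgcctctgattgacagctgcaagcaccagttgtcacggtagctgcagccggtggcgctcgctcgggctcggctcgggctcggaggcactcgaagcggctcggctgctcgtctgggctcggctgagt
Susd6: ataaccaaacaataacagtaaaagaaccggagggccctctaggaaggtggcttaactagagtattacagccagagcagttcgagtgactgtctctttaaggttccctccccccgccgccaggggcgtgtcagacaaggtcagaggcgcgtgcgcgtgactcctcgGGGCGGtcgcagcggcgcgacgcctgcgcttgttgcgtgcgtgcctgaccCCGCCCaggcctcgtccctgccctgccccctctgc
The capitals are GC boxes (GGGCGG or its complement) in Ep300, Ptpn9, Brsk2 and Susd6, and CCAAT boxes in Brsk2. The 250 bases held 25 CpG sites in Ep300, 26 in Ptpn9, 22 in Brsk2 and 21 in Susd6, against 7 in Cplx2. The observed over expected CpG ratio was 0.761 in Ep300, 1.01 in Ptpn9, 0.782 in Brsk2 and 0.855 in Susd6, and 0.436 in Cplx2.

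Where peaks lay around these start sites differed between broad and narrow lists. At Cplx2, which encodes complexin 2, a protein that binds the SNARE complex and tunes transmitter release, the broad peaks spanned the start. They ran from -323 to 1438 bp and from -493 to 1332 bp in knock-in libraries 1 and 2, against -734 to 1399 bp and -428 to 1195 bp in wild type libraries 1 and 2. The narrow peaks all lay inside the transcribed side of that span. Knock-in library 3 had 1 peak from 169 to 871 bp and knock-in library 4 had 2, from 350 to 523 bp and from 580 to 699 bp. Wild type library 3 had 2, from 310 to 659 bp and from 685 to 765 bp, and wild type library 4 had 1 from 356 to 585 bp. The 4 narrow lists therefore shared bases of this region, and none of their peaks reached the start site.

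At Susd6 the narrow peaks were on the same side. Knock-in libraries 3 and 4 had peaks from 347 to 745 bp and from 82 to 285 bp, and wild type libraries 3 and 4 from 484 to 635 bp and from 550 to 717 bp, so the peak of knock-in library 4 lay nearer the start and the other 3 overlapped. At Brsk2, a kinase gene that acts in neuronal polarity, knock-in library 3 had peaks from 240 to 575 bp and from 577 to 1017 bp and knock-in library 4 had 1 from 463 to 592 bp. Wild type libraries 3 and 4 had peaks from 404 to 562 bp and from 464 to 582 bp, so the peaks of knock-in library 4, wild type library 3 and wild type library 4 overlapped closely there. Ptpn9, a protein tyrosine phosphatase gene, had its narrow peaks between 5 and 1030 bp in all 4 narrow lists.

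Ep300, which encodes the acetyltransferase p300, was the exception among the 5. Knock-in library 3 had a peak from -757 to 269 bp and knock-in library 4 from -255 to -139 bp. Wild type library 3 had a peak from -256 to -94 bp and wild type library 4 from -479 to -331 bp. All but the first of these were upstream of the annotated start.

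**Figure D1:**
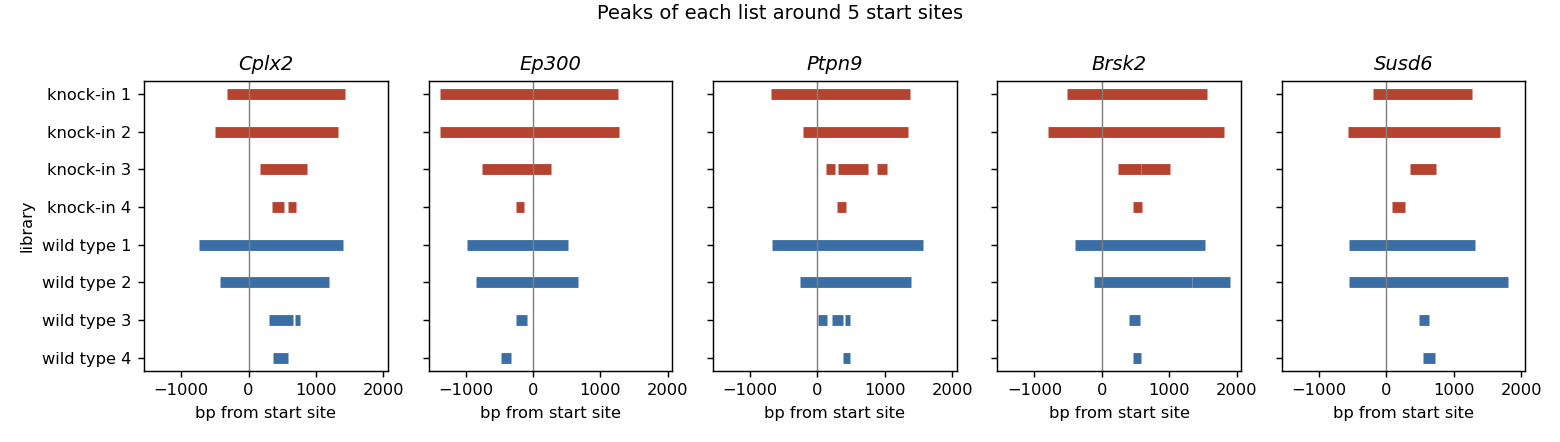
Peaks of each list around the start sites of 5 members in all 8 lists; the horizontal axis is the distance from the RefSeq start site in bp with the transcribed side positive, each row is a library, and bars are peaks (red knock-in, blue wild type). Broad peaks of replicates 1 and 2 span the start, and the narrow peaks of replicates 3 and 4 lie on the transcribed side except at Ep300.

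The same arrangement held over members that have exactly 1 RefSeq start site inside, of which there were 521. Of the narrow peaks in these members, 77.8% in knock-in library 3 and 85.4% in knock-in library 4 lay wholly downstream of the start, against 80.6% in wild type library 3 and 79.3% in wild type library 4. The mean was 80.8% ± 3.29 (SD, n = 4 libraries). Peaks over the start itself made up 13.2% and 7.87% in the knock-in lists and 11.8% and 8.28% in the wild type lists. The median peak centre was 283 and 286.5 bp downstream in knock-in libraries 3 and 4, and 297 and 304.5 bp in wild type libraries 3 and 4. The 4 narrow lists thus differed little in where their peaks centred, although they differed in number from 89 peaks in knock-in library 4 to 850 in knock-in library 3.

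In the broad lists nearly every peak of these members crossed the start: 97.7% and 97.3% in knock-in libraries 1 and 2, and 96.9% and 90.5% in wild type libraries 1 and 2. Their centres were also on the transcribed side, with medians of 316 and 316.5 bp in the knock-in lists and 321.75 and 304 bp in the wild type lists. The median edges of knock-in library 1 were -518 and 1124 bp from the start, and those of wild type library 1 were -476.5 and 1087 bp. Separate peaks on both sides of a start were rare. Among members with several peaks, knock-in library 3 had a peak on each side of the start in 19 of 255 and wild type library 3 in 5 of 114. Regions in 1 to 5 lists showed the same arrangement, with 76.2% to 78.6% of narrow peaks wholly downstream there.

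**Figure D2:**
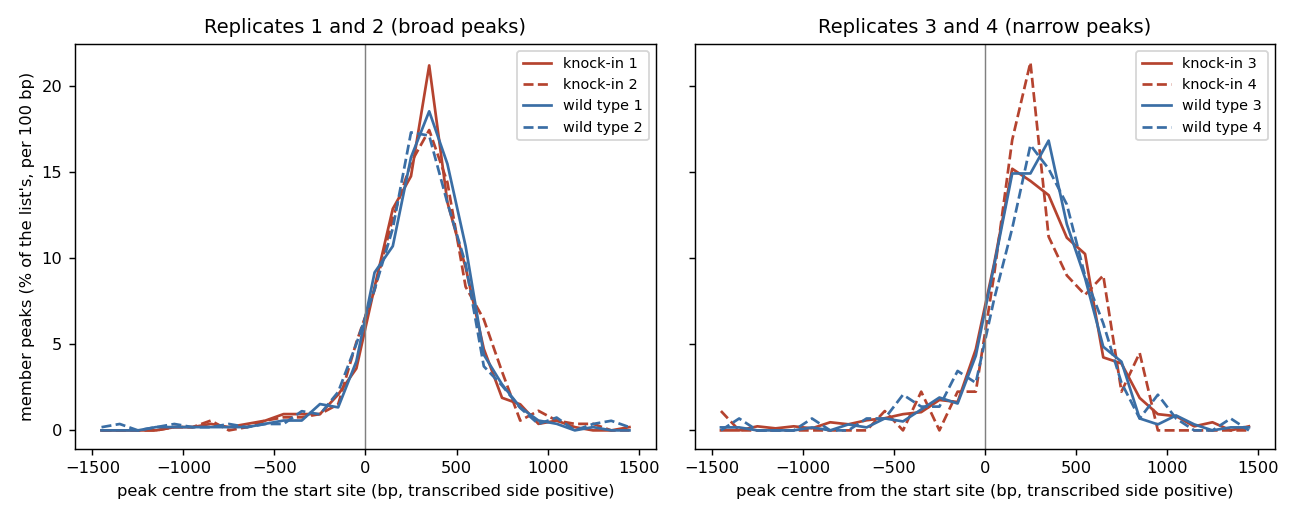
Distance of member peak centres from the start site, in bins of 100 bp, for the 521 members with 1 RefSeq start site; the vertical axis is the percent of that list's peaks, red lines are knock-in and blue lines wild type libraries. In all 8 libraries the peak of the distribution lies on the transcribed side, with medians of 283 to 321.75 bp.

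Narrow peaks of different libraries overlapped at most of the members that both held. Where knock-in library 3 and wild type library 3 both held a member, their peaks overlapped in 683 of 841 (81.2%, exact 95% interval 78.4 to 83.8%). Within the knock-in genotype, replicates 3 and 4 overlapped in 80.9% of 157 members, and within wild type in 75.9% of 191. Between knock-in library 4 and wild type library 4 the share was 71.2% of 66, with an interval of 58.7 to 81.7% that covers the others. The shares between genotypes lay from 70.9% to 81.2%, a range that includes the within-genotype shares. Regions of any width in 1 to 5 lists had shares from 82.0% to 89.7%, higher than the members in each of the 6 pairs, so overlap was also seen outside the members. Merging itself makes narrow peaks of a region overlap unless another peak bridges them. Broad peaks lie in nearly all members, so the sizes of the shares cannot be compared between the sets.

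Members were mostly at the ends of genes. A protein-coding gene end lay within 1 kb of 827 members (82.5%, exact 95% interval 80.0 to 84.8%), 143 (14.3%) were inside a gene away from its ends and 33 (3.29%) were outside genes. Over all merged regions the gene-end share was 45.6%, and over regions in 1 to 5 lists it was 43.3%. Wide regions are more often at gene ends, and regions of member width in 1 to 5 lists had a share of 73.3%. Of the members, 744 held at least 1 RefSeq start site and 135 of these held start sites on both strands (18.1%), against 18.7% of the regions of the same width in 1 to 5 lists that held any. Among the 143 members inside genes, 82 held a start site of the promoter table, away from the ends of the gene itself. Of the 25 members in all 8 lists, 15 were at a gene end (exact 95% interval 38.7 to 78.9%), 8 inside genes and 2 outside.

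Promoter letters were compared over 1023 RefSeq promoters of 300 bases (250 before and 50 after the start) whose start lies in a member. Of the 933 protein-coding genes with an end at a member, 759 had an entry. The median CpG observed over expected ratio was 0.900 in member promoters, 0.816 in 8789 promoters whose start lies in a region of 1 to 5 lists and 0.384 in all 32851 promoters of the table. Median GC content was 69.7%, 64.0% and 52.7% in the same order. A ratio over 0.6 was found in 91.4% of member promoters and 82.5% of promoters of regions in 1 to 5 lists, and in 35.8% of all promoters.

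Each motif was searched by its exact letters on both strands, and no searched motif contains another. The GC box (GGGCGG) was in 79.5% of member promoters, 70.9% of promoters of regions in 1 to 5 lists and 35.7% of all promoters. The CCAAT box (CCAAT) was in 26.1%, 35.5% and 37.4% of the same sets, and the TATA letters (TATAAA) in 3.91%, 5.05% and 13.6%. The NRF1 motif (GCGCATGC) was in 6.06%, 5.98% and 2.71%, the CRE (TGACGTCA) in 3.71%, 3.41% and 1.79%, and the CGCG box (TCTCGCGA) in 2.64%, 2.59% and 0.995%. For these 3, member promoters and those of regions in fewer lists lay close together and both above the whole table.

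Other motifs were in a smaller share of member promoters than of promoters of regions in fewer lists. The ETS letters (CCGGAAG) were in 14.9% of member promoters, 18.9% of those of regions in 1 to 5 lists and 8.86% of all. The E-box of USF factors (CACGTG) was in 8.60%, 10.2% and 7.15%, the YY1 letters (AAGATGGC) in 4.30%, 4.87% and 2.75%, the NeuroD-type E-box (CAGATG) in 7.62%, 9.69% and 17.2%, and the AP-1 site (TGACTCA) in 1.86%, 2.90% and 5.20%. These are shares of letters in reference sequence and were not tested.

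Members were filled differently by each list. Knock-in libraries 1 to 4 held 987, 1001, 966 and 182 of the 1003, and wild type libraries 1 to 4 held 1002, 990, 876 and 280. Replicate 4 of either genotype was low and the other lists were high, so the genotypes overlapped fully. The commonest pattern was absence from both replicate 4 lists alone, in 607 members (60.5%), followed by absence from knock-in library 4 alone in 127. All 4 lists of replicates 1 and 2 held 973 members. Both replicate 4 lists held 66.

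**Figure D3:**
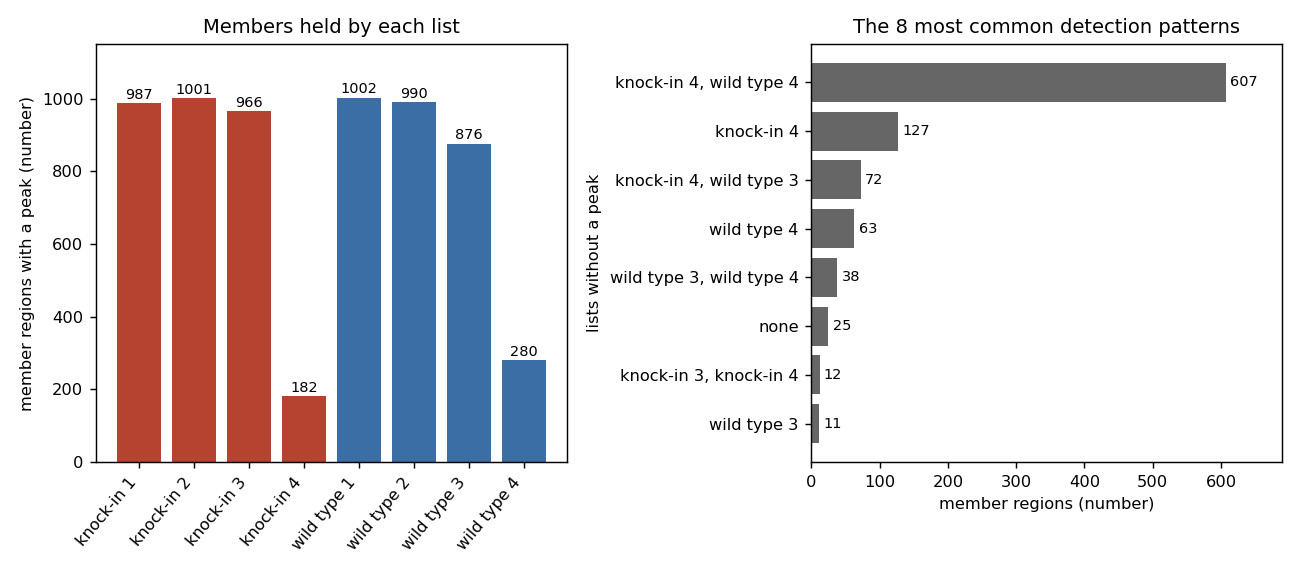
Number of members with a peak in each list (left; red knock-in, blue wild type) and the 8 most common sets of lists without a peak (right). Replicate 4 of both genotypes held 182 and 280 members, and 607 members were missing from exactly those 2 lists.

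Member peaks ranked high in the broad lists and less so in the narrow ones. Rank is the percentile of a region's best score among the scores of that list's peaks. The median over members held was 89.6, 90.3, 76.3 and 49.5 in knock-in libraries 1 to 4, and 90.3, 86.5, 64.6 and 56.3 in wild type libraries 1 to 4. In replicate 4 of both genotypes the members were therefore ordinary peaks of their list. Median widths of member peaks were 1674, 1652, 167 and 135 bp in knock-in libraries 1 to 4, against 1591, 1350, 153 and 138 bp in wild type libraries 1 to 4. Replicate 3 lists split a member into several peaks most often, in 45.5% of held members in the knock-in list and 27.7% in the wild type list, while knock-in libraries 1 and 2 did so in 1.11% and 1.40% and wild type libraries 1 and 2 in 0.499% and 2.63%. Members took 9.41%, 9.01%, 27.9% and 16.7% of the peaks of knock-in lists 1 to 4, and 8.83%, 13.1%, 36.0% and 20.6% of those of wild type lists 1 to 4.

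**Figure D4:**
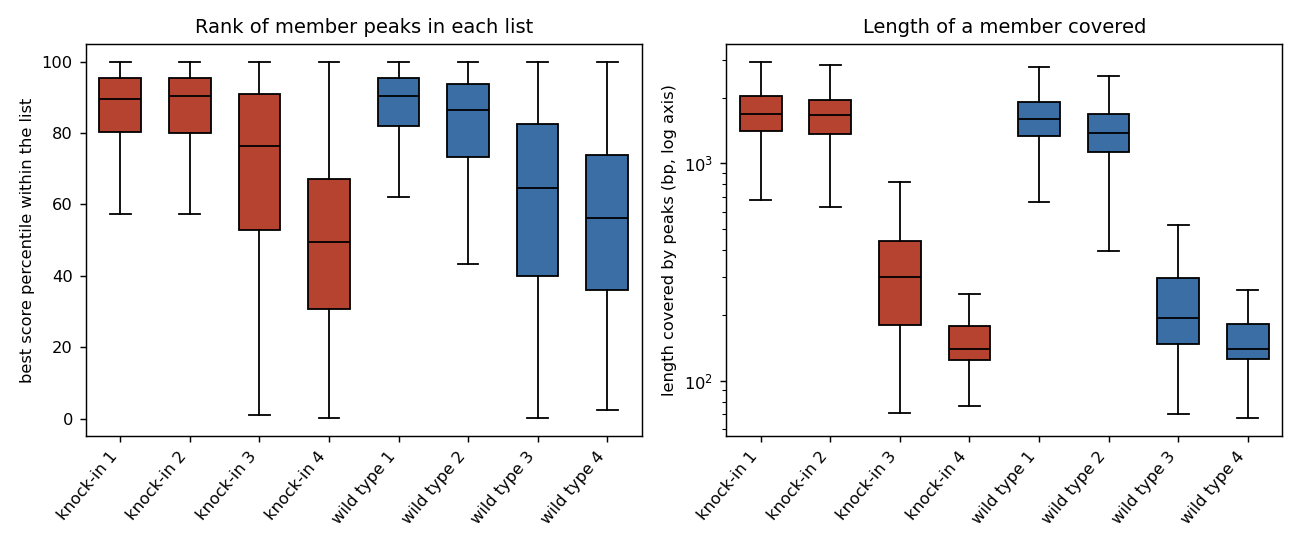
Score percentile (left) and length covered by peaks in bp on a log axis (right) of the members each list held; boxes are quartiles with the median, whiskers reach 1.5 box lengths, points beyond them are not drawn, red is knock-in and blue wild type. Replicates 1 and 2 sit near the top in both panels, and replicates 3 and 4 are lower in both genotypes.

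The mark in each genotype over these regions is described by 4 summaries per library, with no test, since the rule used these lists and the merged widths. Knock-in lists held 78.2% ± 40.0 of the members, against 78.5% ± 34.2 in wild type lists (SD, n = 4 each). Peaks covered on average 46.7% ± 44.0 of a member's length in knock-in lists and 41.3% ± 40.6 in wild type lists (SD, n = 4 each). The mean score percentile was 76.4 ± 19.1 in knock-in lists and 74.4 ± 16.6 in wild type lists (SD, n = 4 each). A held member had 1.20 ± 0.283 peaks in knock-in lists and 1.13 ± 0.152 in wild type lists (SD, n = 4 each). Every difference was smaller than the spread between libraries of 1 genotype, whose lists differed severalfold in length.

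The same values were set side by side within the broad and within the narrow lists. In replicates 1 and 2 the covered share averaged 84.4% in knock-in and 76.1% in wild type lists, and the share of members held 99.1% and 99.3%. By library the covered share was 84.9% and 83.9% in knock-in libraries 1 and 2, and 82.0% and 70.3% in wild type libraries 1 and 2. The lowest was wild type library 2, the shortest broad list. In replicates 3 and 4 the covered share averaged 8.97% in knock-in and 6.49% in wild type lists, and the share held 57.2% and 57.6%. By library the covered share was 16.2% and 1.74% in knock-in libraries 3 and 4, and 10.5% and 2.49% in wild type libraries 3 and 4. Knock-in was thus higher in replicate 3 and lower in replicate 4.

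Region by region, the split of lists between genotypes was tested given how many lists held the region and how readily each list holds regions in general. Of the 978 members in 6 or 7 lists, 119 (12.2%) were in more knock-in than wild type lists, 155 (15.8%) in more wild type lists and 704 in as many of each. Regions of any width in 6 or 7 lists had shares of 12.7% and 17.5%. None of the 978 members had an adjusted p under 0.05 in this conditional exact test with Benjamini-Hochberg adjustment, beside 0.0% of all 19438 regions tested. At an unadjusted p under 0.05 in the conditional test there were 53 of all regions (0.273%) and no member, and Fisher's exact test called none either (0.0%). Neither test could call a member, because a region in 6 lists cannot split more unevenly than 2 against 4. For that split the smallest p is 0.107 in the conditional exact test and 0.429 in Fisher's exact test. The zeros were thus fixed by the rule, and the 0.273% is no yardstick for members. A miss therefore does not show that the genotypes are alike at these regions.

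The covered length and the score percentile were also set side by side in the 4 broad lists, over the 973 members they all held. Both knock-in lists covered more of the member than both wild type lists in 323 (33.2%), beside 35.3% of all 5484 regions these lists share, and less in 51 (5.24%), beside 4.8%. Both knock-in percentiles were above both wild type ones in 214 members (22.0%), beside 25.0%, and below in 86 (8.84%), beside 7.88%. The members' counts are near the background in each direction. The median length covered was 1692 and 1677 bp in knock-in libraries 1 and 2, and 1600 and 1382 bp in wild type libraries 1 and 2, the lowest being the list with the fewest peaks of the 4.

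The members named for the most uneven split toward knock-in were Rnf130, a RING finger gene; Cdan1; Lrig1, which restrains receptor tyrosine kinases; Skil, whose product SnoN represses TGF-beta signalling; Senp6, a SUMO protease gene; and a region inside Ankrd13c. Each was in all 4 knock-in lists and in wild type libraries 1 and 2, missing wild type libraries 3 and 4, as were 38 members in all. Their conditional exact p was 0.273 and their adjusted p was 1 (Benjamini-Hochberg), the same for all 41 members with this split. The named ones have the highest mean percentile of those tied members, so their ranks below are partly a result of that choice. At Rnf130 (chr11:50024497-50026552) the score percentile was 90.6, 92.7, 93.2 and 75.6 in knock-in libraries 1 to 4, against 86.7 and 93.4 in wild type libraries 1 and 2. At Senp6 (chr9:80065949-80068813) it was 97.7, 98.3, 96.4 and 26.7 in knock-in libraries 1 to 4, against 98.9 and 96.8 in wild type libraries 1 and 2. In the broad lists the 2 genotypes overlapped at Rnf130, and at Senp6 wild type library 1 was highest.

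Toward wild type the named members were Chd3, a chromatin remodeller of the NuRD complex; Ube2e3, a ubiquitin-conjugating enzyme gene; Mast2, a kinase gene; Fam160b2; and regions inside Dyrk2 and 2210408I21Rik. Their conditional exact p was 0.107 and their adjusted p was 1 (Benjamini-Hochberg), the same for all 17 members with this split. They too were named by mean percentile among the tied members. All the named members but the region inside 2210408I21Rik missed knock-in libraries 3 and 4, as did 12 members in all. At Chd3 (chr11:69368035-69370202) the percentile was 96.8 and 97.1 in knock-in libraries 1 and 2, against 98.5, 96.8, 79.0 and 54.3 in wild type libraries 1 to 4. The region inside 2210408I21Rik (chr13:77438354-77439878) was in knock-in libraries 2 and 4 at percentiles of 29.3 and 94.2, and in wild type libraries 1 to 4 at 73.5, 93.4, 97.7 and 94.0.

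The targeted gene and its partners were looked up next. The region at the outer end of Atxn7 (chr14:13960210-13962381) was in 4 lists, 2 of each genotype, and is not a member. A region inside the gene (chr14:14011820-14013965) that holds a start site of Atxn7 is a member, in 3 lists of each genotype. Its percentile was 97.1, 87.4 and 29.3 in knock-in libraries 1 to 3, and 80.8, 92.0 and 30.7 in wild type libraries 1 to 3, so the ranges overlapped and library 3 was the lowest in both genotypes. The region of Kat2a, the acetyltransferase gene of SAGA, was in 5 lists, 2 knock-in and 3 wild type, and is not one either. Usp22 (chr11:61173624-61175414) is a member, in 3 lists of each genotype. Its percentile was 82.1, 95.3 and 80.1 in knock-in libraries 1 to 3, and 81.0, 86.5 and 74.0 in wild type libraries 1 to 3. The other SAGA and ATAC gene at a member was Atxn7l3, the adaptor of the deubiquitinase module, in 4 knock-in and 2 wild type lists. That makes 2 of the 33 listed SAGA and ATAC genes, although 29 of them were at some merged region. A peak at Atxn7 in either genotype does not check the genotype labels, since the expansion changes the protein and not the promoter.

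The members with all 8 lists ranked as follows in each library. Cplx2 (chr13:54301822-54303994) had percentiles of 98.8, 94.9, 99.8 and 71.6 in knock-in libraries 1 to 4, and 99.5, 98.0, 95.7 and 84.3 in wild type libraries 1 to 4. Ep300 (chr15:81584829-81587496) had 99.6, 99.4, 99.8 and 47.9 in the knock-in libraries, and 99.3, 99.8, 84.5 and 79.8 in the wild type ones. In both the lowest library was knock-in library 4, and the genotypes overlapped.

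Pde3b, a cyclic nucleotide phosphodiesterase gene (chr7:114414609-114417410), had percentiles of 99.8, 99.7, 97.8 and 40.4 in knock-in libraries 1 to 4, and 98.6, 99.0, 95.5 and 88.7 in wild type libraries 1 to 4. Fbxw4 (chr19:45659098-45661120), an F-box gene, had 96.8, 98.8, 98.4 and 50.1 in the knock-in libraries, and 98.8, 98.8, 92.9 and 2.7 in the wild type ones. Susd6 (chr12:80789968-80792339) had 97.0, 98.1, 96.9 and 76.7 in the knock-in libraries, and 97.5, 90.8, 14.4 and 61.3 in the wild type ones. The lowest library differed between these genes and was a narrow list at each, and the narrow lists ranked members lower in general. Ptpn9, Ptov1, Brsk2, Usf2 and Lysmd2 ran from 18.8 to 99.7 over all libraries, and the Usf2 region is shared with Lsr.

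Gene groups were uneven among members. Of 21887 protein-coding genes 933 (4.26%) had an end at a member, and of the 9851 at any merged region this was 9.47%, the figure each group is read against. The lists and families were chosen with earlier results of these data known, and a group's share was not tested. Ubiquitin system genes named by prefix were at a member for 34 of 171 at any region (19.9%), among them Cul1 and Cul4a, which encode cullin scaffolds, the deubiquitinase genes Usp1, Usp15 and Usp22, and Trim28, a corepressor. Phosphatase genes were at a member for 18 of 112 (16.1%), such as Ppp2ca, the catalytic subunit of PP2A, Ppp3r1, the regulatory subunit of calcineurin, and the MAP kinase phosphatases Dusp1 and Dusp5.

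Chromatin regulator genes were at a member for 10 of 48 (20.8%), among them the NuRD remodellers Chd3 and Chd4, the Polycomb genes Ring1 and Rnf2, the demethylase genes Kdm5b and Kdm7a, the 5-methylcytosine oxidase gene Tet3, Ino80 and Ctcf. Of acetylation enzymes and readers outside SAGA there were 4 of 24 (16.7%), among them Ep300 and the deacetylase genes Hdac2 and Hdac5. Tet3 had percentiles of 97.2, 92.5 and 73.5 in knock-in libraries 1 to 3, and 96.9, 97.1 and 95.3 in wild type libraries 1 to 3, and was in neither replicate 4 list. Hdac5 had 91.1, 90.2 and 95.5 in knock-in libraries 1 to 3, and 89.0, 80.0 and 78.8 in wild type libraries 1 to 3.

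Neuronal groups were also found among members. Synaptic and channel genes were at a member for 8 of 42 (19.0%), among them Snap25 and Vamp2 of the SNARE complex, Pclo of the active zone, the postsynaptic scaffold gene Homer1, the calcium channel subunit genes Cacna2d2 and Cacnb4, and the calmodulin gene Calm2. Another 8 genes of that list were at regions of 3000 bp or wider that the width limit leaves out, among them Grin1 and Bsn. Ataxia and polyglutamine disease genes were at a member for 6 of 26 (23.1%), among them Htt, Atn1, Kcnd3, Ttbk2 and Aptx. Kcnd3, a potassium channel gene mutated in a human spinocerebellar ataxia, had percentiles of 88.5, 99.6, 98.7 and 70.8 in knock-in libraries 1 to 4, and 98.9, 98.3 and 81.3 in wild type libraries 1, 2 and 4. Atn1, the gene of dentatorubral-pallidoluysian atrophy, had 98.9, 96.9 and 76.4 in knock-in libraries 1 to 3, and 99.1, 98.3 and 75.6 in wild type libraries 1 to 3. In both the genotypes overlapped. Ttbk2 shares its region with Cdan1 and Stard9, and Aptx shares its region with Dnaja1, so the mark cannot be assigned to 1 of them.

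Genes listed as immediate early, many of which neurons switch on with activity, were at a member for 4 of 20 (20.0%): Jund, Fosl2, Ier5 and Dusp1. Ier5 had percentiles of 96.3, 99.0, 95.6 and 73.9 in knock-in libraries 1 to 4, and 97.4, 97.5 and 92.0 in wild type libraries 1 to 3. Heat shock and unfolded protein genes were at a member for 3 of 19 (15.8%), Dnaja1, Hspa4 and Vcp. In all 3 of these both replicate 4 lists lacked a peak. Sterol genes had 1 of 14 (7.14%), Scap, and cell cycle and p53 genes 1 of 18 (5.56%), Rb1. Brain transcription factor genes had 2 of 38 (5.26%), Mef2d and Rora, with 6 others, such as En2 and Zic5, at regions of 3000 bp or wider. Solute carriers had 16 of 164 (9.76%), near the figure for all genes.

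Few listed cell type markers were at members, and the granule and Purkinje cell shares were near the 9.47% of all genes. Of granule cell genes Reln and Cadps2 were at a member, 2 of 23 at any region (8.70%), and 6 others, Cbln1, Chn2, Grin2c, Neurod2, Rbfox3 and Zic2, were at regions of 3000 bp or wider. Of Purkinje cell genes Atp2a2, the SERCA2 calcium pump gene, and Rora, the gene mutated in the staggerer mouse, were at a member, 2 of 18 (11.1%). Atp2a2 (chr5:122500750-122503416) had percentiles of 98.3, 99.7 and 94.5 in knock-in libraries 1 to 3, against 99.0, 99.6, 99.2 and 80.5 in wild type libraries 1 to 4. Rora (chr9:68653109-68655303) had 71.7, 86.9 and 45.9 in knock-in libraries 1 to 3, and 83.3, 81.8 and 52.6 in wild type libraries 1 to 3. At both genes the values of the broad lists overlapped between genotypes. Of the interneuron genes Cdh22 was at a member, 1 of 5 at any region. No gene of the astrocyte, oligodendrocyte, microglial, vascular, photoreceptor or liver and muscle lists had an end at a member. These lists had only 2, 4, 1, 2, 2 and 2 genes at any region, in the same order. With so few, their absence from members says little.

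Several constitutive gene families were often at merged regions and had few genes at members. Cytosolic ribosomal protein genes were at a member for 1 of 66 (1.52%), and that one, Rpl7, shares its region with Rdh10. Mitochondrial ribosomal protein genes were at none of 57 and the RNA polymerase, Mediator and TAF families at none of 79. Nuclear genes of oxidative phosphorylation had 4 of 75 (5.33%), Atp5a1, Atp5d, Atp5g3 and Uqcrh, and proteasome genes 1 of 37 (2.70%), Psma7, which shares its region with Ss18l1. Zfp and Zbtb zinc finger genes had 13 of 275 (4.73%), splicing and RNA-binding genes 8 of 127 (6.30%) and translation factor genes 5 of 62 (8.06%). Kinesin, dynein and tubulin genes had 3 of 63 (4.76%), which include Map1lc3a, an autophagy gene met by its prefix. The prefix search for histone genes met only H2-Ke6, which is not a histone gene, and no Hox or protocadherin gene was at a member.

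**Figure D5:**
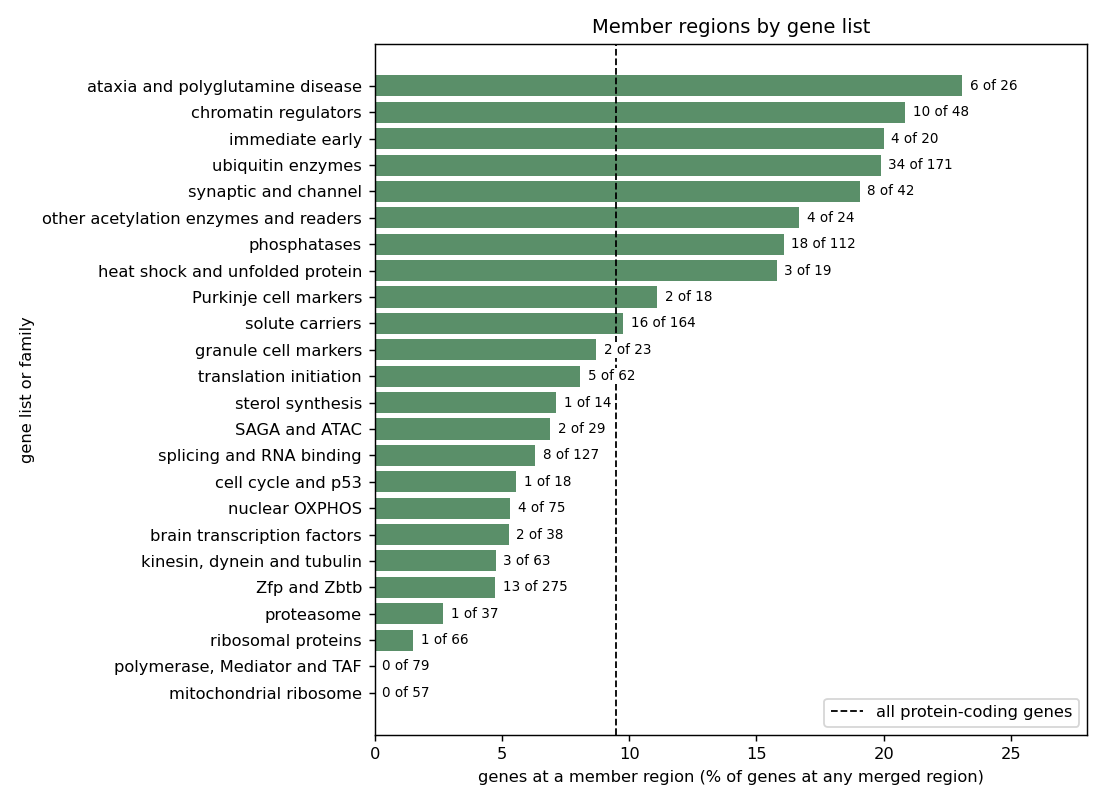
Genes with an end within 1 kb of a member, as a percent of the list's or family's genes at any merged region, for most lists with 10 or more such genes; numbers give both counts and the dashed line is the 9.47% of all protein-coding genes. The ataxia, chromatin regulator, immediate early, ubiquitin and synaptic groups lie above the line, and ribosomal protein, proteasome and zinc finger genes below it.

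Members outside genes had other ranks than gene-end members, given here as a description. Gene-end members had median percentiles of 90.1, 91.0, 76.3 and 45.0 in knock-in libraries 1 to 4, and 90.9, 86.8, 65.0 and 55.1 in wild type libraries 1 to 4. The 33 members outside genes had 34.8, 53.3, 75.6 and 72.4 in knock-in libraries 1 to 4, and 69.4, 43.2, 72.7 and 72.4 in wild type libraries 1 to 4. Their medians were lower than those of gene-end members in all 4 broad lists and, apart from knock-in library 3, higher in the narrow ones. Replicate 4 lists held 21 (knock-in) and 23 (wild type) of these 33, against 129 and 206 of the 827 at gene ends.

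The region inside Mdga2, a synaptic adhesion gene (chr12:67058915-67060279), was in all 8 lists. Its percentile was 38.6, 99.3, 99.9 and 99.7 in knock-in libraries 1 to 4, and 99.3, 87.4, 99.9 and 99.7 in wild type libraries 1 to 4. The narrow peaks covered 852 and 777 bp in knock-in libraries 3 and 4, and 849 and 786 bp in wild type libraries 3 and 4. It holds no RefSeq start site of the promoter table. A region outside genes on chromosome 3 (chr3:56574686-56576546), also in all 8 lists, had percentiles of 7.82, 92.6, 98.2 and 92.6 in the knock-in libraries, and 94.8, 72.3, 99.5 and 99.2 in the wild type ones. At both, the lowest library was knock-in library 1, and the narrow lists ranked them near their top.

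Further members inside genes were chosen for mention after their values were seen, as were the regions inside Mdga2 and on chromosome 3. The region inside Mcl1, an anti-apoptotic BCL2 family gene, holds its start site and had percentiles of 98.3, 96.4, 98.8 and 47.9 in knock-in libraries 1 to 4, and 89.9, 96.5, 90.0 and 80.9 in wild type libraries 1 to 4. The region inside Srf, a transcription factor gene of the activity response, was in 6 lists with 99.1, 99.1 and 98.7 in knock-in libraries 1 to 3, and 97.3, 96.6 and 97.5 in wild type libraries 1 to 3.

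MicroRNA genes lay at some members. There were 26 with an end within 1 kb of a member, 21 of them wholly inside one, at 23 members. At 3 members outside protein-coding genes the microRNA genes were Mir760, Mir124a-3 and Mirlet7i. The mature sequences that RefSeq gives for Mirlet7i (minus strand of chromosome 10) and Mir760 (minus strand of chromosome 3) are shown because their members lie outside protein-coding genes, with the seed, bases 2 to 8, in capitals.
let-7i-5p: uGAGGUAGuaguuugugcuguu
miR-760-3p: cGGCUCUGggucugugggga
The seeds of these differ. The Mirlet7i member (chr10:122984768-122987029) had percentiles of 94.2, 97.7 and 81.4 in knock-in libraries 1 to 3, and 93.8, 90.9 and 19.4 in wild type libraries 1 to 3. The Mir760 member (chr3:122292265-122294513) had 93.2, 96.2 and 72.5 in knock-in libraries 1 to 3, and 91.4, 93.5, 53.5 and 65.8 in wild type libraries 1 to 4. Mir124a-3, a gene of miR-124, which is abundant in neurons, had 98.3, 99.4 and 75.6 in knock-in libraries 1 to 3, and 98.5, 94.8 and 74.7 in wild type libraries 1 to 3. Wild type library 3 was the lowest library at the first 2, and the broad lists held all 3 members high in both genotypes.

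At the edges of the rule, the members just inside the lower width limit were at Samd10 (1201 bp) and Rnf216 (1207 bp), both in 6 lists, and the regions just outside were at Tbca (1191 bp) and on chromosome 13 (1170 bp), both in 7. Just inside the upper limit were Dcaf5 (2991 bp) and Foxn2 (2988 bp), and just outside were a region of 3000 bp on chromosome 15 in 8 lists and Setd1b (3001 bp) in 6. Member width had a median of 1958 bp with quartiles of 1679.5 and 2298 bp, and 1479 regions of the same width were in 5 lists.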

How the data were processed

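H3K9ac ChIP-seq peak lists of 8 cerebellum libraries were used, 1 per library. The authors called peaks with MACS in Galaxy, per the file headers, and the submitters' processing notes name Bowtie2 and the mm10 build. For MACS, its version, settings and any input control were not given in the sources used here. Each deposited score is the authors' own value, its scale is not stated, and it served only to rank peaks within a list. Start and end are the deposited positions, and the 15 negative starts among 52676 peaks were set to 0.

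Groups came from the sample titles. Gene ends, start sites and sequences came from RefSeq tables of GRCm38.p6. A gene was placed at a region if an end lay within 1 kb, which can catch a neighbouring gene. A list held a region if a peak overlapped it by 1 bp. The conditional exact test took library odds from a Rasch model over all regions and was adjusted by Benjamini-Hochberg over the 19438 regions in 1 to 7 lists, with a threshold of 0.05. It was tested on simulated data, where regions held by every list of 1 genotype alone had an unadjusted p under 0.05. No member can have that split. Library summaries are given as mean ± SD, and the permutation test planned for them is not used, since the rule used the same lists. Intervals are exact Clopper-Pearson at 95% and cover counting error only. Python 3.11.15, numpy 2.4.6, pandas 2.3.3 and scipy 1.17.1 were used. Named regions were the 12 of all 8 lists at a gene end with the highest mean percentile, 6 per direction by conditional p, up to 3 per gene list or family, and Atxn7, Kat2a and Usp22. Ties in p went to the higher mean percentile. Alternatives varied the lists, their length, the merging, the width limits, the gene window, the start sites and the promoter background. The members and gene lists were chosen with earlier results of these data known. Some genes and regions are not reported here.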

Additional observations from a re-analysis of the deposited data

Results flagged for a closer look

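Of the 4 knock-in libraries, replicate 4 stood apart in the share of members it held, 18.1%, against 98.4%, 99.8% and 96.3% in knock-in replicates 1 to 3. The gap to the next library was most of the group's range. The limit set for such a gap is passed by chance in about 1 of 20 groups, and several measures were screened in both genotypes. The member rule used these same lists, so the gap is given as a description. Wild type replicate 4 was also the lowest of its group at 27.9%, without passing the same limit. Knock-in replicate 4 had the shortest list, 1266 peaks, and the part of list length in its share was not tested.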

How the results depend on the processing

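The number of members depends on the lists used. It was 512 with only the peaks above each list's median score, 233 with every list held to its 1266 highest-scoring peaks, 241 for regions in 7 or 8 lists, 25 in all 8 and 2482 in 5 or more. Leaving out 1 library gave 1021 to 2438 regions, with 2438 without knock-in replicate 4, 2406 without wild type replicate 4 and 2191 without wild type replicate 3. Leaving out both replicate 4 libraries, chosen after seeing the data, gave 2362. The rule then asks for fewer lists.

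No alternative gave a member with an adjusted p under 0.05. Leaving out 1 library gave 0 calls each time, with smallest unadjusted p of 0.0114 to 0.121 in the conditional exact test. With all libraries the smallest p of any region in that test was 0.0113, and no region was called. The zeros therefore do not show that the genotypes are alike. The 4 differences between genotypes (knock-in minus wild type) changed sign. Without 1 library they ranged from -8.57 to 29.8 percentage points for the share held, -7.98 to 21.1 for the covered share, -3.82 to 8.28 for the score percentile and -0.0530 to 0.138 for peaks per member. The share held differed by 13.4 points without both replicate 4 libraries, against -0.299 with them. With lists of equal length the score percentile differed by -1.31 and the peaks per member by -0.0246, and in replicates 1 and 2 alone that value was -0.00306. The cause was not tested.

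The gene-end share was 85.8% with a window of 3 kb. Against promoters of regions in 1 to 5 lists the motif differences in percentage points shrank to 0.0452 for the CGCG box, 0.0759 for NRF1, 0.301 for the CRE, 8.58 for the GC box, -2.07 for the NeuroD-type E-box, -1.14 for TATA and -1.04 for AP-1, and they turned to -4.01 for ETS, -0.569 for YY1 and -1.63 for the E-box. Taking the nearest of several start sites on 1 strand, chosen after seeing the data, gave 77.2% of narrow peaks wholly downstream.

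With the replicate number as a block the differences were -0.299 for the share held and 5.38 for the covered share. They were 2.00 for the score percentile and 0.0694 for peaks per member. Each genotype has every replicate number, so these equal the differences without a block by arithmetic and are no check. The blocked conditional test called 0 members, with a smallest p of 0.177 among them. That test could not call a member either, because the rule leaves a member with too few missing lists for a small p. Its result was fixed by the rule and does not show that the genotypes are alike. Same-numbered libraries deviated together with correlations of -0.0504, 0.118, 0.0375 and 0.222, not every library correlated best with its own number, and the labels do not say that numbers pair the samples.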

Other observations

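Of the 66 members held by both replicate 4 lists, 8 had a score percentile of 90 or more in both, a set chosen after the values were seen. A single one, at Oasl1, was at a gene end, 5 were inside Mdga2, 2210408I21Rik, Zc3h7a, Ank1 and Miga1, and 2 were outside genes on chromosomes 12 and 3. The region inside Ank1 had percentiles of 11.1, 62.4, 98.2 and 96.1 in knock-in libraries 1 to 4, and 87.9, 76.9, 99.9 and 99.1 in wild type libraries 1 to 4. The region inside Zc3h7a had 71.9, 85.8, 94.96 and 97.9 in the knock-in libraries, and 34.5, 71.2, 92.2 and 92.0 in the wild type ones. In both regions the replicate 3 lists also ranked the region above all 4 broad lists, while the high replicate 4 ranks were set by the choice. The region outside genes on chromosome 12 (chr12:74803205-74805241) was missing from knock-in library 1, and had 56.8, 98.4 and 99.8 in knock-in libraries 2 to 4, and 98.2, 97.7, 99.8 and 99.7 in wild type libraries 1 to 4. None of these 3 regions holds a RefSeq start site of the promoter table.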
